A study of Xenopus laevis with 32 samples.

Results

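The resting stage VI oocyte of the frog Xenopus laevis was described by joining 3 measures of the same genes: the share of a gene's RNA found in polysomes, its polyadenylated RNA level, and the poly(A) sites at which its RNA ends. A gene entered when its name stood in all 3 deposited tables, with level names listed a single time. This left 3080 of the 6497 genes that have a polysome share. Of the genes with a share, 3304 also had a level and 3173 also had poly(A) sites. The study followed oocytes through 5 stages of maturation, and its stage VI oocytes, labelled noPG, had received no progesterone, the hormone that starts maturation. Oocyte extracts were run on sucrose gradients, and polyadenylated RNA from the mRNP, monosome and polysome fractions was sequenced in 2 libraries per fraction. A further 2 lanes of PAS-seq, a method that reads the 3′ ends of polyadenylated RNA, came from the same stage. No genotype, strain or animal number is given for these 8 libraries.

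A stage VI oocyte is fully grown and arrested in prophase of the first meiotic division. It makes little new RNA and lives on a maternal store, much of which is packed by RNA-binding proteins into mRNPs without ribosomes and kept with short poly(A) tails until maturation. An mRNA in polysomes carries several ribosomes and is being translated. The position where an mRNA is cut and polyadenylated sets the length of its 3′ untranslated region, which holds the elements that the storage and polyadenylation machinery binds. Xenopus laevis is allotetraploid, and most genes have an L and an S copy (homeologs) from its 2 subgenomes. The joined genes included 1770 L and 1279 S copies.

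Shares and levels were deposited in 2 column sets, x and y, which were treated as the 2 samples of stage VI. Nothing says that they came from separate animals, so their spread may be technical. The share is a fraction of a total that the sources do not state, the level has no stated unit, and it is not known whether levels are per length, so an order of genes by level cannot be told apart from one that includes their length. The sequencing depth behind both is therefore unknown. PAS reads were counts, 656192 at 41982 sites over both lanes, of which 225648 reads (34.4%) at 14018 sites belonged to the joined genes. Markers of the oocyte were present, with 18 names listed with a level. Their median level was 63.1 in x and 10.8 in y, at percentiles 59.3 and 53.5 of all names with a level. The oocyte linker histone h1foo.S, far above that median, had 7597 in x and 4228 in y. Of the symbols taken as follicle cell or blood markers, cyp17a1.L was listed with levels of 45.5 and 11.7 and 58 PAS reads, star.L had 7 PAS reads and hbg1.L had 5. Whether these symbols are specific to those cells in Xenopus, and absent from the oocyte, was not tested. Each marker is a name in the tables, and the part that other cells played in the levels was not tested.

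In the resting oocyte most genes had a polysome share well under 0.5. Across the joined genes the share ran from 0.0814 to 0.785 in x, with a median of 0.339, a 10th percentile of 0.238 and a 90th percentile of 0.453. In y it ran from 0.0758 to 0.643, with a median of 0.322 and these percentiles at 0.258 and 0.416. Shares above 0.5 were listed for 130 genes (4.22%) in x, 60 (1.95%) in y and 25 in both. Since the total is not stated, such a share cannot be read as most of a gene's RNA. For a typical gene the shares in x and y had an SD of 0.0353 (the median over genes), and over the 3080 genes, which are not independent replicates, the Spearman rho of x with y was 0.526. The rank of a single gene was thus only partly held by both column sets.

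The joined genes sat higher in RNA level than the names that did not join. Their median level was 86.5 in x and 21.0 in y, against 33.3 and 6.88 for names in the level table that did not join. Among 8220 gene symbols with a level and PAS reads, 9.37% of the lowest decile by level x had a polysome share listed, rising to 51.7% of the eighth decile and 49.6% of the highest. Genes of low level are thus thin in every relation with the share. Levels agreed in rank between the column sets, with a rho of 0.898 over the joined genes, but were on different scales. A gene's level in x was 4.14 times its level in y at the median, with a 10th percentile of 2.18 and a 90th percentile of 8.01.

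A typical joined gene had several listed poly(A) sites. It had a median of 46 PAS reads, from 4 to 1254, at a median of 4 sites, from 1 to 26. In all, 2634 genes (85.5%) had more than 1 site and 446 had 1. The most used site took a median of 54.9% of a gene's reads. The outermost sites of a gene lay a median of 4197 nt apart on the chromosome, with introns included, and 30025 nt apart at the 90th percentile. Sites were listed from 2 reads on, and whether each is a true end of the gene's RNA was not tested. Since more sites are found where more reads fall (rho 0.773 between reads and sites), site numbers are also given below as the number expected in 20 reads, for the 2399 genes that had as many. On that scale the median was 4.0 sites, the decile of genes with fewest sites had up to 2.0, the decile with most had 7.49 or more, and the highest value was 12.5. Sites in 20 reads still rose with PAS reads over these 2399 genes, with a rho of 0.4445.

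**Figure D1:**
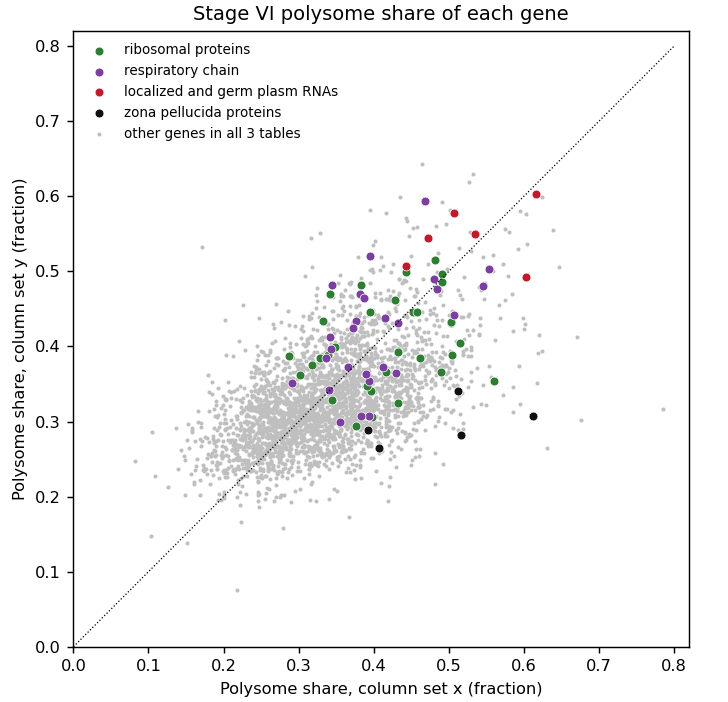
Polysome share of each of the 3080 joined genes at stage VI in column set x (horizontal axis, fraction) and column set y (vertical axis, fraction), with the diagonal of equal shares dotted. Most genes lie below 0.5 on both axes, the localized and germ plasm RNAs (red) and many respiratory chain genes (purple) lie toward the upper right, and the zona pellucida genes (black) lie to the right of the diagonal, with shares of 0.392 to 0.612 in x and 0.265 to 0.340 in y.

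The first question was which genes had a share apart from the median gene. The log2 odds of the share, log2(share/(1 − share)), were centred on the median of each column and tested with limma over all 6497 genes, with Benjamini-Hochberg adjustment and a threshold of 0.05. Of these, 55 genes (0.847%) were called higher and 0 lower, against 1532 at an unadjusted p under 0.05. The number called depended on the setting: with the spread taken from all 5 stages it was 0, with the columns quantile-normalized 719 (230 higher and 489 lower), and with a constant prior variance 629 (369 higher and 260 lower). With either column set left out, the spread again had to come from the other stages, so that setting cannot show how the calls depend on x or y. In the main fit the spread of each gene came from the trend over genes and not from its own x and y. An SE or limma adjusted p below thus does not measure how alike the column sets were for that gene. The SE also widened toward low shares. It was 0.32 for LOC100036640.S at −0.76 log2 odds from the median gene and 0.48 for 42Sp43.L at −1.02. A low share could thus hardly be called in this fit, and the absence of calls on that side says little about low shares. Among the called genes was a gene with shares of 0.785 in x and 0.317 in y, the latter below the median of all genes. A call below is therefore a high rank of the mean log2 odds over these 2 columns and no more.

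Of the 55 genes, 26 were in all 3 tables. Several are known for germ cells. The RNA of nanos1.L, which encodes a translational repressor of the germ line and is stored in the germ plasm, had shares of 0.617 in x and 0.604 in y. It lay 1.69 log2 odds above the median gene, with an SE of 0.39 and a limma adjusted p of 0.0217. Genes of other roles stood close to it in rank, named here after their values were seen. The RNAs of soat1.S (0.639 and 0.555), an enzyme that esterifies cholesterol, paf1.L (0.602 and 0.576), a subunit of a transcription elongation complex, and e2f1.L (0.580 and 0.552), a transcription factor of the cell cycle, were called with limma adjusted p between 0.0262 and 0.0312. Both copies of ddx4, the germ cell helicase vasa, were called as well, ddx4.S with 0.631 and 0.557 and ddx4.L with 0.572 and 0.510. High share went with no single level: the 26 genes had median levels of 99.2 in x and 26.5 in y, 10 lay above the median level of the joined genes in both column sets and 7 below it in both. Their PAS reads had a median of 36.5, and the 19 genes with at least 20 reads had a median of 3.73 sites in 20 reads, against 4.0 for the joined genes.

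Share and RNA level were close to unrelated across genes. Within a column set, where both values may come from the same libraries, rho was 0.0209 in x and 0.0775 in y over 3080 genes. With the share of one set and the level of the other, it was −0.103 for share x with level y and 0.155 for share y with level x. The signs of the crossed values differ, so neither direction was shared by the column sets. By deciles of level x, the median share x was 0.335 in the lowest decile and 0.337 in the highest. Median share y was 0.316 in the lowest decile of level y and 0.333 in the highest. Along the level of the other set the trends were opposite: median share x was 0.357 in the lowest decile of level y and 0.312 in the highest, and median share y was 0.310 in the lowest decile of level x and 0.337 in the highest.

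What did move with level was how well the column sets ranked genes alike. In the lowest decile of level y the rho between share x and share y was 0.330 and the typical SD of a share 0.0471. In the highest decile the rho was 0.634 and the SD 0.0332. By deciles of level x the rho was 0.403 in the lowest and 0.573 in the highest. Shares of low-level genes are thus the least certain.

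**Figure D2:**
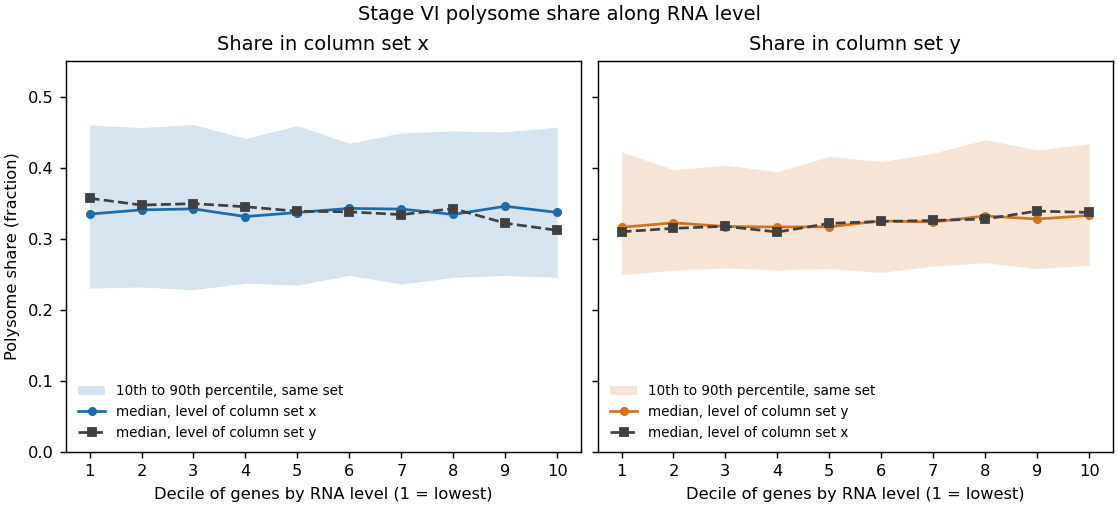
Median polysome share (vertical axis, fraction) per decile of the joined genes by RNA level (horizontal axis, 1 is the lowest decile), for share x on the left and share y on the right. Solid lines order genes by the level of the same column set, dashed lines by that of the other set, and bands span the 10th to 90th percentile of genes. The medians stay between 0.309 and 0.357 along the whole range of level.

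All combinations of high and low share and level occurred. Among the 630 genes in the upper quartile of level in both column sets, 87 (13.8%) were also in the upper quartile of share in both and 95 (15.1%) in the lower quartile in both. Among the 597 genes in the lower quartile of level, the numbers were 64 (10.7%) and 60 (10.1%). Over all 3080 genes they were 376 (12.2%) and 404 (13.1%). High-level genes were thus split about evenly between the ends of the share range. The following genes were named by rank in all 4 measures, so their values describe the corners and are not tested for lying there.

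High level with a high share is shown by stmn1, which encodes stathmin, a protein that destabilizes microtubules. For stmn1.L the share was 0.527 in x and 0.619 in y, with levels of 1632 and 433. It had 223 PAS reads at 3 sites, with the most used at position 59901070 of chromosome 2L (the build is not given in the sources used here), and was called (1.47 log2 odds above the median gene, SE 0.37, limma adjusted p 0.0298). Its homeolog stmn1.S had shares of 0.458 and 0.559 and levels of 1329 and 247. Both copies thus sat in the same corner. The others were atp5j.S, a subunit of the mitochondrial ATP synthase, with shares of 0.554 and 0.503 and all 89 reads at 1 site, and zfand3.L, a zinc finger protein, with shares of 0.505 and 0.447. The next in rank, oaz1.L, an inhibitor of polyamine synthesis, had 0.485 and 0.499.

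High level with a low share is shown by gmnn, which encodes geminin, the inhibitor of replication licensing. For gmnn.L the shares were 0.199 and 0.253 at levels of 6484 and 3355, with 209 PAS reads at 11 sites, of which the most used took 26.8%. Its homeolog gmnn.S had shares of 0.239 and 0.236 at levels of 4980 and 1873, with 679 reads at 10 sites. Again both copies lay in the same corner. The RNA of exosc10.L, a nuclease of the RNA exosome, had shares of 0.202 and 0.226, that of gnai1.S, an inhibitory G protein subunit, 0.178 and 0.252, and that of the coiled-coil gene ccdc30.L 0.148 and 0.254. Their levels in x were 965, 3671 and 8084. Their PAS reads were 43, 41 and 77, against a median of 46 over the joined genes. PAS reads thus did not place exosc10.L and gnai1.S high in amount. The next in rank, cenph.L, a kinetochore protein, had shares of 0.203 and 0.255 and 44 PAS reads. None of the low-share genes was called, gmnn.L with −0.74 log2 odds (SE 0.31, limma adjusted p 0.183). Since the SE of this fit widened toward low shares, the missing calls do not show that these shares were near the median.

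High shares were also found at low levels. A regulatory subunit that brings protein phosphatase 1 to glycogen, ppp1r3b.S, had shares of 0.515 and 0.469 at levels of 9.38 and 3.22. The phosphatase inhibitor ppp1r2.L had 0.491 and 0.593 at 14.0 and 3.60, and was called (1.29 log2 odds, SE 0.36, limma adjusted p 0.0465). Also in this corner was rps25.S, a protein of the small ribosomal subunit, with 0.482 and 0.516 at levels of 19.6 and 3.35. Its PAS reads did not follow its level, being 133, above the joined median of 46. The fourth was zfand3.S, with 0.481 and 0.451 at levels of 13.7 and 3.63. Its L copy was named above for high level, with 799 in x and 334 in y, so the homeologs had like shares at listed levels far apart. Their PAS reads were much nearer, 50 for the L copy and 34 for the S copy. How reads were split between the copies was not tested. Next in rank was gk.S, glycerol kinase, with 0.525 and 0.441.

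Low shares at low levels were those of mybl2.L, a transcription factor of the cell cycle, with 0.191 and 0.243, of ripk1.L, a kinase of death receptor signalling, with 0.222 and 0.188, of tmf1.S, a Golgi protein, with 0.184 and 0.258, and of chordc1.S, a partner of the chaperone HSP90, with 0.239 and 0.252. Their levels in x lay between 9.45 and 13.9. The PAS reads of these 4 genes lay between 20 and 74. Next in rank was the kinase gene cdk12.S with shares of 0.245 and 0.194.

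**Figure D3:**
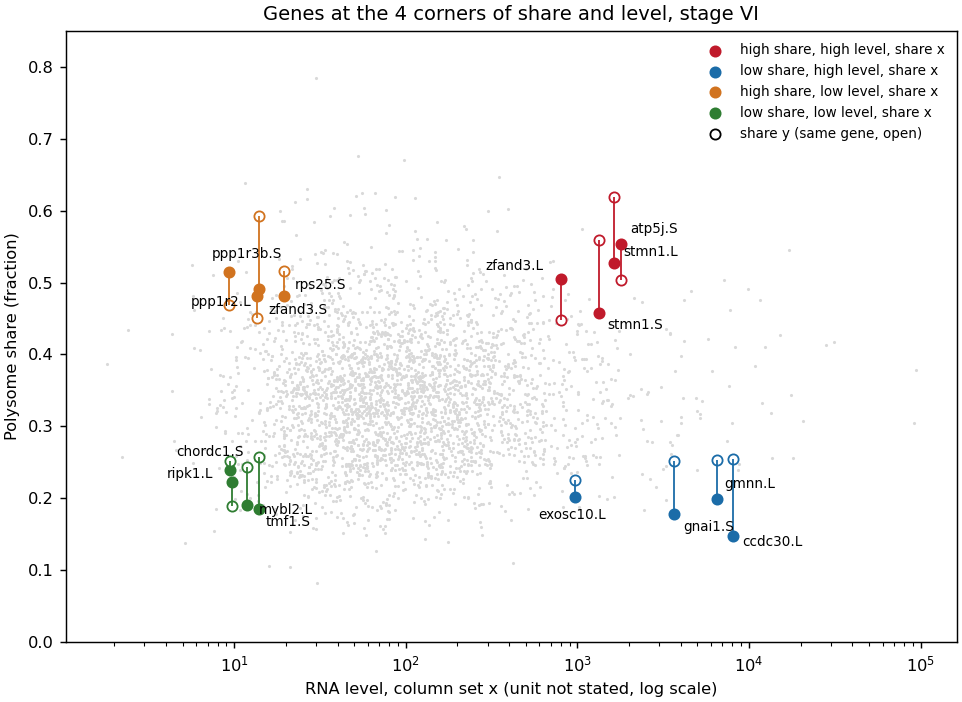
Polysome share (vertical axis, fraction) against RNA level in column set x (horizontal axis, log scale, unit not stated) for the genes named by rank in the 4 corners, with share x filled and share y open, joined by a line per gene, and share x of all joined genes in grey. High and low shares both occur at the low and at the high end of level.

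Level followed PAS reads, the other measure of amount. Over the joined genes rho was 0.503 with level x and 0.461 with level y, and over the 9970 names with a level and PAS reads it was 0.497 and 0.456. The PAS libraries are separate from the gradient libraries. Share had next to no relation with PAS reads, with a rho of 0.0405 in x and 0.0628 in y.

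Genes of higher level had more poly(A) sites. The rho of level with the listed sites was 0.449 in x and 0.442 in y. With the sites expected in 20 reads it was 0.299 and 0.339 over 2399 genes. From the quintile of genes with fewest sites in 20 reads to that with most, the median level was 68.2, 82.4, 105, 129 and 198 in x and 14.2, 19.7, 24.5, 31.8 and 52.2 in y. The median level was higher at each step in both column sets. Since the PAS reads of the highest quintile were also the most, with a median of 112 against 43 in the lowest, the fixed number of reads does not make the quintiles alike in depth. Within quintiles of PAS reads, from fewest to most reads, the rho of level with listed sites was 0.0343, 0.132, 0.0980, 0.180 and 0.206 in x and 0.00510, 0.174, 0.142, 0.226 and 0.302 in y. The relation was thus close to 0 among the genes with fewest reads (4 to 18) and strongest among those with most (106 to 1254).

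Share had no steady relation with site number. With the sites expected in 20 reads rho was −0.102 for share x and 0.0230 for share y. The medians by quintile, from fewest to most sites, were 0.359, 0.343, 0.337, 0.345 and 0.321 for share x and 0.323, 0.317, 0.317, 0.326 and 0.328 for share y. In x the lowest median was in the quintile with most sites, and in y the highest was. The difference between the column sets was clearest among the genes with most reads. In the top quintile of reads, median share x was 0.385 for 52 genes with 2 or 3 sites, 0.361 for 182 genes with 4 to 6 sites and 0.321 for 378 genes with at least 7 sites, with a rho of −0.264. Median share y in the same groups was 0.344, 0.327 and 0.329, with a rho of −0.0440. The 4 genes with 1 site had medians of 0.454 in x and 0.348 in y. The median was lower at each step in x, while in y the larger step lay between the groups with 2 or 3 and with 4 to 6 sites.

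The rank of level, PAS reads and sites in 20 reads together explained little of the rank of share. They accounted for 1.34% of its variance in x and 0.867% in y, and for 3.15% and 2.63% with the level of the other column set. The share in the other column set alone accounted for 29.0%. What the column sets share in polysome share was thus mostly not held in level or site number.

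**Figure D4:**
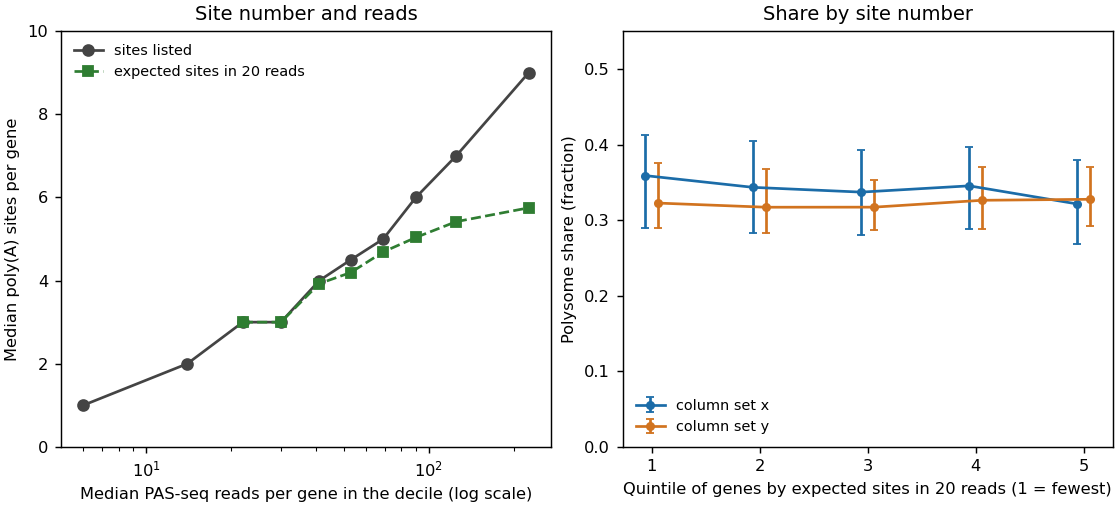
Left, the median number of poly(A) sites per gene (vertical axis) in deciles of the joined genes by PAS reads (horizontal axis, log scale), as listed (circles) and as the number in 20 reads (squares). Right, median polysome share (vertical axis, fraction) in quintiles of 2399 genes by expected sites in 20 reads, with bars from the 25th to the 75th percentile of genes. Listed sites climb from a median of 1 to 9 with reads, and the median share stays between 0.317 and 0.359.

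The 4 genes with most sites had shares from below to above the median of all genes. Of the sites listed for clspn.S, the checkpoint adaptor claspin, 19 of 21 had at least 10 reads, and the most used of them, at position 66080837 of chromosome 2S, took 18.9% of 571 reads. Its shares were 0.330 and 0.335, close to the median of all genes. The spindle protein gene hmmr.L had 22 sites and shares of 0.226 and 0.280. The maintenance DNA methyltransferase dnmt1.L had 26 sites, the most of any joined gene, and shares of 0.281 and 0.279. The splicing factor sart1.S had 17 sites and shares of 0.373 and 0.375. The span from the first to the last site was 35942 nt for clspn.S, 23694 nt for hmmr.L, 42574 nt for dnmt1.L and 15135 nt for sart1.S, with any introns between the sites included.

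At the other end stood genes with many reads at 1 site. The RNA of snrpb.S, a core protein of spliceosomal particles, had all 317 reads at position 27132858 of chromosome 9_10S, with shares of 0.476 and 0.344 and levels of 11639 and 694. The ribosomal stalk gene rplp0.S had 287 reads, shares of 0.432 and 0.394 and levels of 68.0 and 13.3. The others were htatip2.L with 134 reads and shares of 0.481 and 0.352, and rpl23.S, a large subunit ribosomal protein, with 119 reads and shares of 0.344 and 0.328. All 4 had shares above the median of all genes in both column sets, whereas of the 4 genes with most sites 1 did, sart1.S. With 4 genes a side this is a description of the named genes.

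Gene lists made from names were then set beside all genes of each table. Each measure was taken over the members listed for it, so level and site values also cover genes without a share. Over all genes with a share, 2236 of 6497 lay above the median in both column sets and 2237 below it in both, and the medians were 0.332 in x and 0.321 in y. Of 22 lists, 11 had a median above that of all genes in both column sets. In x alone 18 did, and in y alone 12. A list is therefore read only where both column sets hold. The highest and lowest members of a list are given by the mean of share x and share y, so they need not be extreme in each set.

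The list furthest up was that of RNAs known in Xenopus for localization in the oocyte or for the germ plasm, the cytoplasm inherited by germ cells. All 6 of its members with a share lay above the median in both column sets, with medians of 0.521 in x and 0.547 in y. The list was chosen with earlier results of these data known, so its calls are a description. Of these 6 members, 4 were called, against 0.847% of all genes. Besides nanos1.L they were dazl.L, a germ cell RNA-binding protein (0.604 and 0.493), ddx25.L, a helicase of the germ plasm (0.507 and 0.578), and wnt11b.L, a secreted axis signal (0.535 and 0.549), each with a limma adjusted p of 0.0465. Not called were velo1.L (0.473 and 0.545) and the homeobox gene otx1.L (0.442 and 0.507). Over the 18 names of the list with a level, the median lay at percentile 38.5 of the level table in x and at percentile 73.5 in y. The median ratio of level x to level y was 1.83, against 4.37 for all names. The 19 names with at least 20 PAS reads had them split over several listed sites. Their median was 4.88 sites in 20 reads, against 3.0 for all genes with at least 20 PAS reads. The 2 values are not matched in depth, as the list had a median of 77 PAS reads and all names 26. Joined genes with 61 to 78 PAS reads had a median of 4.69 sites in 20 reads, near that of the list. The list has 18 names with a level, so the 6 with a share are a part of it. With the spread taken from all stages, the limma adjusted p of the 14 called genes named in the text, these 4 among them, lay between 0.201 and 0.383.

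Ribosomal protein genes had, as lists, a high level, a high share and few sites, each measure over its own members. Of the 14 small subunit genes with a share, 11 lay above the median in both column sets and 0 below it in both, with medians of 0.442 and 0.412. Of the 29 large subunit genes, 22 lay above and 1 below, with medians of 0.403 and 0.384. None was called. The small subunit genes ran from rps25.S, given above, to rps6.L (0.377 and 0.295), and the large subunit genes from rpl36.L (0.491 and 0.497) to rpl23.L (0.228 and 0.296). Median levels lay at percentile 95.2 in x and 91.8 in y for 47 small subunit genes, and at 90.9 and 88.9 for 62 large subunit genes. Sites were taken over the 41 and 59 genes with at least 20 PAS reads. In 20 reads these had a median of 1.98 and 2.0 sites. Their most used site took 92.5% and 87.9% of the reads, against 58.3% over all genes. Ribosomal protein genes have near-identical copies and pseudogenes, so the value of a single copy is uncertain.

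Initiation factor genes lay nearer to the middle. Of 41 initiation factor genes, 16 lay above the median in both column sets and 10 below it in both, with medians of 0.329 and 0.347. They ran from eif3s4.S (0.514 and 0.510) to eif3h.L (0.192 and 0.288), both subunits of initiation factor eIF3. Of 5 genes in the elongation factor list, which also takes in the storage particle gene 42Sp43.L, 4 lay above in both. The medians of the 5 were 0.416 and 0.377, near those of the large subunit genes. By the mean of x and y the highest was eef1b2.L (0.511 and 0.349), which lay below the median of the 5 in y. Below the median in both was 42Sp43.L, with 0.210 and 0.178. Its protein is part of the storage particle that holds 5S ribosomal RNA and transfer RNA in Xenopus oocytes. None of these was called.

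Genes of the mitochondrial respiratory chain resembled the ribosomal protein genes. Of 33 with a share, 29 lay above the median in both column sets and 0 below it in both, with medians of 0.390 and 0.432. By the mean of x and y the highest was ndufa12.S, a subunit of complex I (0.468 and 0.594), with a limma adjusted p of 0.0537. The lowest by that mean was sdhd.S, a subunit of complex II (0.291 and 0.351). They too had 2.0 sites in 20 reads and a most used site with 85.6% of reads, and 28 of the 91 with at least 20 reads had a single site. Over the 105 names with a level, the median lay at percentile 77.1 in x and 63.9 in y. Level x was a median of 8.95 times level y, the largest ratio of the 22 lists. Mitochondrial ribosomal protein genes lay lower, with 9 of 20 above in both sets, 2 below, and medians of 0.343 and 0.389.

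**Figure D5:**
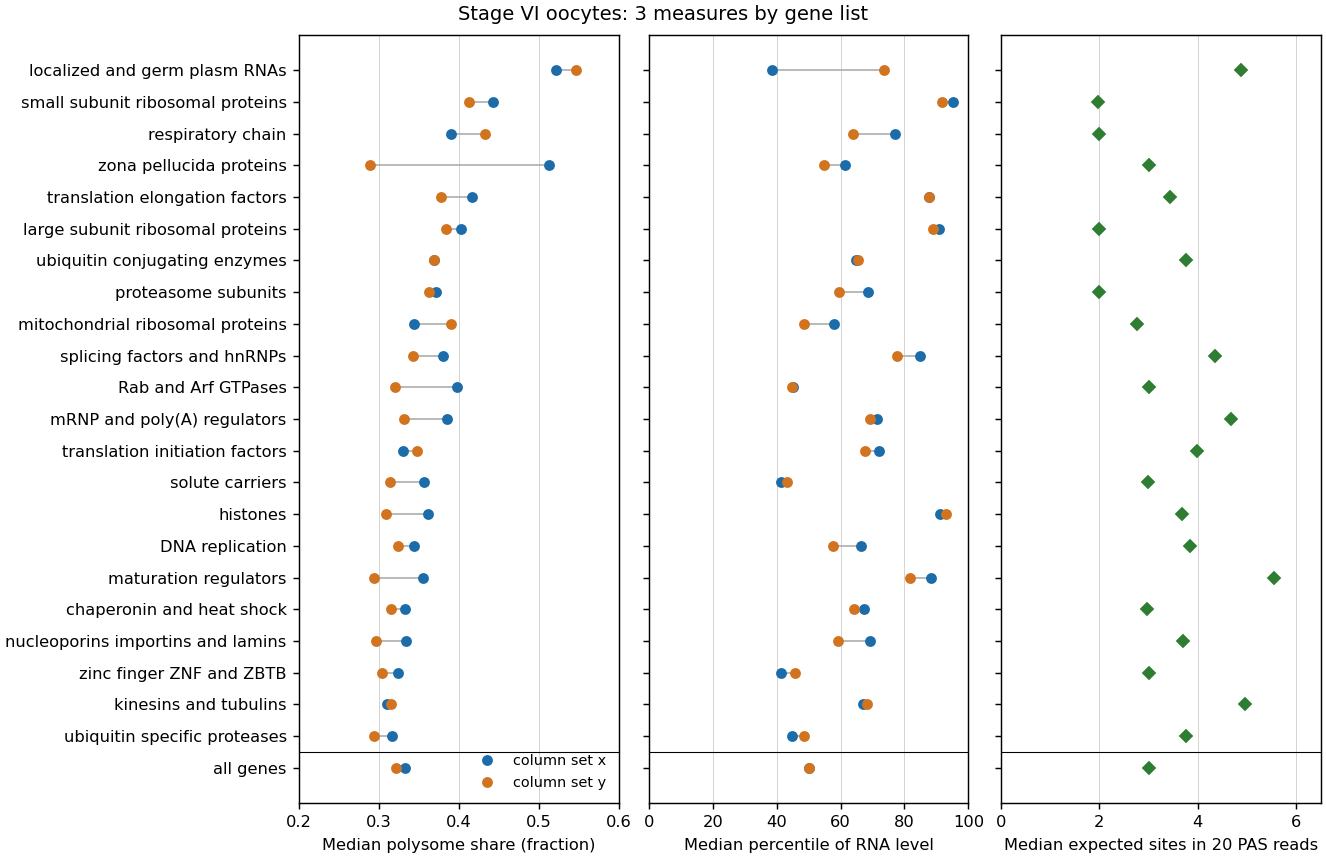
Median polysome share (left, fraction), median percentile of RNA level (middle) and median expected poly(A) sites in 20 reads (right) for 22 gene lists and all genes, with column set x in blue and column set y in orange. Lists are ordered by the sum of their median shares. The localized RNAs, ribosomal proteins and respiratory chain lie above all genes in both sets, and the zona pellucida genes do so in x.

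Within protein breakdown, conjugating enzymes and deubiquitinating proteases lay on opposite sides. Of 26 ubiquitin conjugating enzyme genes, 16 lay above the median in both column sets and 4 below it in both, with medians of 0.369 and 0.368. Of 32 ubiquitin specific protease genes, 8 lay above and 16 below, with medians of 0.316 and 0.294. Examples are ube2v1.L (0.402 and 0.471) and usp53.L (0.184 and 0.235). The difference between the lists was not tested. Of 25 proteasome genes 13 lay above and 4 below, with medians of 0.372 and 0.362, from psme1.L (0.443 and 0.571), a subunit of the 11S activator, to psmg2.L (0.241 and 0.246), an assembly chaperone. Of 53 chaperonin and heat shock genes 17 lay above and 19 below, from the chaperonin subunit cct2.S (0.559 and 0.501) to dnajc21.L (0.202 and 0.291). None of these was called.

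The genes of the egg coat showed how far the column sets can part. All 5 zona pellucida genes with a share lay above the median in x and 1 in y, with medians of 0.513 in x and 0.288 in y. For zp2.L the shares were 0.612 and 0.307, for zp3.S 0.516 and 0.282, and for zpd.L 0.513 and 0.340. A high share of these RNAs therefore rests on x alone. Solute carrier genes differed between the sets in the same sense, with 43 of 61 above the median in x, 27 in y and 22 in both. So did Rab and Arf GTPase genes, with 23 of 36 in x, 17 in y and 13 in both.

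Regulators of maturation had high levels, many PAS reads and many sites, without a common share. Over the 30 names with a level, the median lay at percentile 88.2 in x and 81.8 in y. The 27 with at least 20 PAS reads had a median of 5.56 sites in 20 reads, the most of the 22 lists. The list was also deep, with a median of 154 PAS reads. Joined genes with 106 to 161 PAS reads had a median of 5.42 sites in 20 reads, near that of the list. Of 18 with a share, 5 lay above the median in both column sets and 6 below it in both, with medians of 0.355 and 0.293. The gene called was zfp36l2.L, an RNA-binding protein that promotes mRNA decay (0.579 and 0.494, limma adjusted p 0.0465). The lowest by the mean of x and y was ccnb3.S, a B-type cyclin (0.170 and 0.268). Of the other cyclin B genes, ccnb1.2.L had 0.257 and 0.227 and ccnb1.2.S 0.275 and 0.2501, both below the median in both sets, at levels in x of 948 and 916. Both also ended mostly at 1 site, with 83.4% of 676 reads and 79.1% of 508 reads. The RNA of ccnb2.L had 0.346 and 0.276, that of ccnb2.S, the member of highest level at 9890 in x, 0.364 and 0.275, and that of the kinase gene mos.L 0.381 and 0.293 at 11 sites. Each of these 3 lay above the median in x and below it in y. The spindle kinase Aurora A had 0.532 and 0.319 for aurka.L and 0.497 and 0.376 for aurka.S.

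RNA-binding proteins of stored mRNPs and poly(A) control included the highest level of all joined genes, that of ddx6.S, a helicase of repressed mRNPs, with 94027 in x and 45011 in y. Its shares were 0.378 and 0.353, a little above the medians, and it had 238 PAS reads at 15 sites. PAS reads thus did not place ddx6.S highest, since they reached 1254 among the joined genes. Its homeolog ddx6.L had levels of 105 and 10.01 and shares of 0.401 and 0.431. The L minus S difference in log2 was −9.81 for level x and −12.1 for level y, but −3.09 for PAS reads. How reads were split between these copies was not tested. Of 20 such genes 10 lay above the median in both column sets and 2 below it in both, with medians of 0.385 and 0.332, and dazl.L was the one called. The lowest was cnot2.S, a subunit of the CCR4-NOT deadenylase (0.262 and 0.284). Of 8 histone genes 2 lay above and 2 below, with medians of 0.361 and 0.308. The oocyte linker histone h1foo.L had 0.296 and 0.313 with 449 PAS reads, and h1foo.S 0.356 and 0.467 with 910.

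Lists of nuclear proteins, and that of kinesins and tubulins, differed in how they lay about the median. Of 44 splicing factor and hnRNP genes 21 lay above the median in both column sets and 7 below it in both, with medians of 0.380 and 0.343. The gene called was sf3b2.L (0.559 and 0.522, limma adjusted p 0.0465), and the lowest was sf3a2.L (0.190 and 0.287), both of the U2 particle. Of 21 DNA replication genes 7 lay above and 5 below, with medians of 0.344 and 0.323. They ran from mcm3.L, a subunit of the replicative helicase that was called (0.532 and 0.550, limma adjusted p 0.0465), to gmnn.L, given above. Of 16 nucleoporin, importin and lamin genes 3 lay above and 6 below, with medians of 0.333 and 0.296. These ran from kpna6.L (0.5004 and 0.442) to nup37.L (0.162 and 0.274). Of 29 kinesin and tubulin genes 7 lay above and 10 below, with medians of 0.310 and 0.315. The range was from tuba4.L (0.530 and 0.366) to kif3b-like.L (0.199 and 0.248). The 66 zinc finger genes of the ZNF and ZBTB families had 16 above and 29 below, with medians of 0.323 and 0.304, from zbtb34.L (0.547 and 0.464) to znf574.S (0.205 and 0.226).

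Homeologs offered a comparison of genes alike in function. In 702 pairs with both copies in all 3 tables, the L and S copies resembled each other in share, with a rho of 0.531 in x and 0.574 in y, in level with 0.476 and 0.518, in PAS reads with 0.584 and, over 494 pairs, in sites in 20 reads with 0.477. With the L copy in one column set and the S copy in the other, the rho of share was 0.368 and 0.352, against 0.532 and 0.540 between the column sets for the same copy. The copies were thus less alike across column sets than within one. Reads can be split between near-identical copies, so this likeness is uncertain.

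Where the copies of a gene differed in level, their shares did not differ in a set direction. The rho between the L minus S difference in share and that in log2 level was −0.0451 in x and −0.0754 in y, and −0.116 and 0.00730 when crossed. Differences in level went with differences in PAS reads, with a rho of 0.394 in x and 0.336 in y, and in sites in 20 reads, with 0.259 and 0.255. Differences in share went with neither column's difference in sites, with −0.0430 and −0.0332. Between homeologs, as between genes, level and site number went together. The copies were not matched in PAS reads, with which sites in 20 reads still rose.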

How the data were processed

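The 3 measures come from 8 stage VI libraries, 6 from gradient fractions and 2 PAS-seq lanes. Polysome shares were deposited by the authors as a fraction per gene in column sets x and y, levels as a score of unstated unit in the same sets, printed as the authors' values, and PAS reads as a count per poly(A) site over both lanes, with no site under 2 reads. The submitters' processing notes name Bowtie, Bowtie2, TopHat2 and Cufflinks. Their roles and versions, the genome build, the annotation and the filters are not given in the sources used here. The x and y columns carry no replicate number.

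Tables were joined by exact gene name. The 178 level names listed more than once were left out, which cost 54 genes, and 2160 of the 6497 names with a share were identifiers rather than symbols. PAS reads and sites were summed per name. One-sample limma (3.58.1 in R 4.3.3, with a mean-variance trend) tested the log2 odds. The script was tested on simulated data. Relations across genes are Spearman's rho with no p-value (pandas 2.3.3). Expected sites in 20 reads were computed from the counts without random draws. PAS reads carry no molecular identifiers. Another 21 columns of later stages and ratios were not used.

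The genes, lists and named-gene rule were chosen with earlier results of these data known. Named were the 4 genes ranking highest in each corner of share and level, the 4 with most sites of at least 10 reads, the 4 single-site genes with most reads, a set of maturation genes, and of each list the members highest and lowest in share, highest in level and called. Homeologs of such genes and other called genes were added after their values were seen. Site positions are as deposited. Alternatives covered scaling, transformation, spread, filters on level, sites and reads, and each column set left out.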

Additional observations from a re-analysis of the deposited data

Results flagged for a closer look

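A signal outside the joined genes was found in the PAS-seq table. The mitochondrial gene ND1 had 7065 PAS reads at 52 listed sites. The largest number of reads for a joined gene was 1254.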

How the results depend on the processing

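The number of genes called moved most. It was 55, and became 0 with the spread shared with all stages, 719 after quantile normalization and 629 with a constant prior variance. When a column set was left out, the 1 column left was assumed to vary like those of the other stages. That setting differs from the main fit in its spread as well, so its number of calls is not compared. Against 55 of 6497 genes in the main fit, the number was 52 of 6497 on untransformed shares. It was 57 of 2987 genes above the lower quartile of level, and 60 of the 3080 joined genes. Of these 57 and 60 genes, 25 and 26 were also called in the main fit. The fit over the joined genes was an alternative chosen after seeing the data. Of 14 called genes named, 14 kept their direction in every setting that tested them, and 14 lost the call with the shared spread. They were called for a high mean over the same 2 columns, so a kept direction was close to fixed in advance. The called gene with shares of 0.785 in x and 0.317 in y, not among these 14, lay below the median of all genes in y. The rho of share with level was 0.0496, here a mean over x and y for the 3304 genes with both. It was −0.0602 for L minus S differences, and the cause was not tested. It lay between 0.0264 and 0.0728 when a column set was left out. The rho of level with sites, 0.319, was 0.362 for sites with at least 10 reads, 0.260 in 50 reads and 0.446 with no fixed depth. That of level with PAS reads, 0.477, was 0.404 above the lower quartile of level and 0.402 for sites with at least 10 reads. The rho of share with sites was −0.0394 and lay between −0.102 and 0.0230 when a column set was left out. Lists above all genes numbered 11, and 12 to 18 when a column set was left out. No paired analysis was possible because x and y have no replicate numbers in their names and no groups were compared. A relation with protein length was planned and not run. Depth limits site numbers of genes with few PAS reads.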
